A study of Mus musculus with 18 samples.

Results

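The genes described here are the major histocompatibility complex (MHC) genes, whose symbols start with H2- on this array, together with B2m, Cd74, Tap1, Tap2, Tapbp, Psmb8, Psmb9, Psmb10 and Ciita. They were chosen by symbol alone, and they comprised 44 genes with 66 probes of the 34509 symbols and 46643 probes on the B6 and NZW arrays. The study hybridised kidney cortex RNA of 5 mouse strains, each of which had been challenged with an antibody against the glomerular basement membrane (anti-GBM), to Illumina BeadChips with 3 mice per strain at 2 months of age. B6 and BALB/c (BALB/C in the labels) were given as resistant to anti-GBM-GN, the resulting glomerulonephritis, and DBA1, 129/svj and NZW were given as sensitive. All 15 mice were challenged, and no unchallenged mouse was among the samples, so a level here is a level after challenge and a difference is a difference between inbred strains. The time of collection is not given in the sources used here.

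B6 and NZW were deposited in 1 table, and BALB/c, DBA1 and 129/svj in another, in which mouse 1 of each strain had a second array that was averaged with the first. Only 25 member probes of 18 genes could be matched 1 to 1 between the tables by their search key and could therefore be read in all 5 strains. A further 6 probes of H2-Ob, H2-T10 and Psmb8 shared a key with other rows, and 35 probes had no partner, so that 24 genes were read in B6 and NZW only. Differences were tested within a table. A strain of 1 table against a strain of the other was not tested, because table and strain cannot be told apart there.

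MHC class I molecules (H2-K1, H2-D1) pair with beta-2 microglobulin, the product of B2m, and display peptides that the immunoproteasome (Psmb8, Psmb9, Psmb10) cuts and that the TAP transporter (Tap1, Tap2) and tapasin (Tapbp) load. MHC class II molecules (H2-A and H2-E, each an alpha and a beta chain) are guarded by the invariant chain Cd74, loaded with the help of H2-DM, restrained by H2-O and switched on by the transactivator Ciita in antigen-presenting cells. In the kidney, class I is made widely, whereas class II marks dendritic cells and macrophages and can appear on tubular cells in inflammation. The MHC differs in sequence between inbred strains more than almost any other region. B6 and 129 strains carry the H2b haplotype, BALB/c H2d, DBA/1 H2q and NZW H2z, and H2b strains lack H2-Ea transcripts because of a promoter deletion.

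An array probe was designed against 1 sequence, so that a low signal can be a low RNA level or an allele that binds the probe poorly, and for 1 probe these cannot be told apart. The probe sequences were not among the files used here. Where a gene had several probes, each is given, since agreement or disagreement between them is a measurement. The tissue is also a mixture of cells, and fewer cells of a type and less RNA per cell cannot be told apart.

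Promoters of 31 of the 44 genes were matched by symbol in the RefSeq table of the B6 reference genome (GRCm38.p6, from 250 bases before the start to 50 bases after it). Those of 6 class I, class II and immunoproteasome genes whose signal differed between strains are given here, and they are the sequence of B6 only. Capitals mark matches, on either strand, to a kappa B site of the class I enhancer A (GGATTCCCC), the core of an interferon response element (GAANNGAAA), the Y box (CCAAT) and the core of the class II X box (AGCAAC). These matches describe letters and are not shown to be used.
H2-K1, GRCm38.p6 chr17:34000298-34000597, minus strand: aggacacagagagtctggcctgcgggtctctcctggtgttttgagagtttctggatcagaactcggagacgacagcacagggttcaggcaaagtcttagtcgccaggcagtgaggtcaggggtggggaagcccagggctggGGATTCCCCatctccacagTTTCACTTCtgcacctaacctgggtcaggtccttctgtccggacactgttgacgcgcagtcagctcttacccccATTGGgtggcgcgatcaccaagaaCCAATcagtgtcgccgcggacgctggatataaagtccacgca
H2-D1, GRCm38.p6 chr17:35262844-35263143, plus strand: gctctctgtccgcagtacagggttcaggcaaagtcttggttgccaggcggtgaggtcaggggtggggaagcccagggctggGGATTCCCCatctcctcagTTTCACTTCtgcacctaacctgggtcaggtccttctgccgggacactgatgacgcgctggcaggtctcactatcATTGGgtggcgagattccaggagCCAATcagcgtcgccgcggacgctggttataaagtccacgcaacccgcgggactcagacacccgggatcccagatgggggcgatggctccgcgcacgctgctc
H2-Q6, GRCm38.p6 chr17:35424600-35424899, plus strand: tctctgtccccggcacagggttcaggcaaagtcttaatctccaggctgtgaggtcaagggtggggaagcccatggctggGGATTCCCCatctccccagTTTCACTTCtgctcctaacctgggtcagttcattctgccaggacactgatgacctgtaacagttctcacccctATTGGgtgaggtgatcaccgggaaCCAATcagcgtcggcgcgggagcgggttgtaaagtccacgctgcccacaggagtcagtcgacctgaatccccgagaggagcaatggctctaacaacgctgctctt
H2-Eb1, GRCm38.p6 chr17:34305617-34305916, plus strand: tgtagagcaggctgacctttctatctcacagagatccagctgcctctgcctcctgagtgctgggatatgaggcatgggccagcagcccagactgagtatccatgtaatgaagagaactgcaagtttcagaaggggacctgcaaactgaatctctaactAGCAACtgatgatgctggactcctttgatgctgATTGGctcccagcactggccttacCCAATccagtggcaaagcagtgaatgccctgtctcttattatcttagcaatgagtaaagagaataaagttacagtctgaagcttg
H2-DMb2, GRCm38.p6 chr17:34144999-34145298, plus strand: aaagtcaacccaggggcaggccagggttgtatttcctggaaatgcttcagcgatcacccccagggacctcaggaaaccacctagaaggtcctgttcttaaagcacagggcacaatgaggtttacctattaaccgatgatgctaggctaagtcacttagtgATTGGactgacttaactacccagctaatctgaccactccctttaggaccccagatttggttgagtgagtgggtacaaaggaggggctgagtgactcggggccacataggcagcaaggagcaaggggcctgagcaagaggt
Psmb9, GRCm38.p6 chr17:34187281-34187580, minus strand: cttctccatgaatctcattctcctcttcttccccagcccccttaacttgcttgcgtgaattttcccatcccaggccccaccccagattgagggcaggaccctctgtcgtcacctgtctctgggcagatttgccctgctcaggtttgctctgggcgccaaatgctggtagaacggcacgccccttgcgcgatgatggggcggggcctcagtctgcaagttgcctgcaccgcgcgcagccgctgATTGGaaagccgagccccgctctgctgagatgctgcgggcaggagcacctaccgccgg

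The kappa B letters were found in the promoters of H2-K1, H2-D1 and H2-Q6 and in 0.283% of the 32851 promoters of the table. The interferon response core was found in 6 of the 31 member genes (H2-K1, H2-D1, H2-Q6, H2-Q7, H2-Q10 and H2-M3) and in 7.52% of all promoters. The Y box letters were held by 27 of the 31 genes and by 37.4% of all promoters. The X box core was found in 6 of the 31 genes and in 14.8% of all promoters. The genes were H2-Eb1, H2-Eb2, H2-Oa and H2-Ob of class II and the class I-like H2-M3 and H2-T23. It was not found in the promoters of H2-Aa, H2-DMa, H2-DMb1 and H2-DMb2, also of class II.

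Signal is given as log2 of the normalised intensity, for which the lowest detected probes lay between 5.37 and 5.75 over the arrays. A probe was tested when at least 3 mice had a detection p-value of 0.05 or less, which held for 20 of the 25 paired member probes (16 genes). The 5 that were not tested were H2-M10.6, H2-Q10 and 3 of the 4 probes of H2-T18. The third 129/svj mouse stood apart. It had the highest signal of its strain in 16 of 17 member probes detected there, with a median of 0.61 above the strain mean, against 38.0% of all probes tested. In the same mouse, the summed normalised signal of the 2 tested macrophage markers (C1qa and C1qc) was 599, against 255 and 117 in the other 129/svj mice, and that of S100a8, the only tested neutrophil marker, was 1213, against 325 and 28.1. The part of these cells in the member signals was not tested. Without that mouse, the number of member probes called was 12 in place of 11 for resistant against sensitive strains, 10 in both cases for BALB/c against 129/svj, and 6 in place of 7 for DBA1 against 129/svj. The share of all probes called without that mouse was not computed, so these counts describe the members only.

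**Figure D1:**
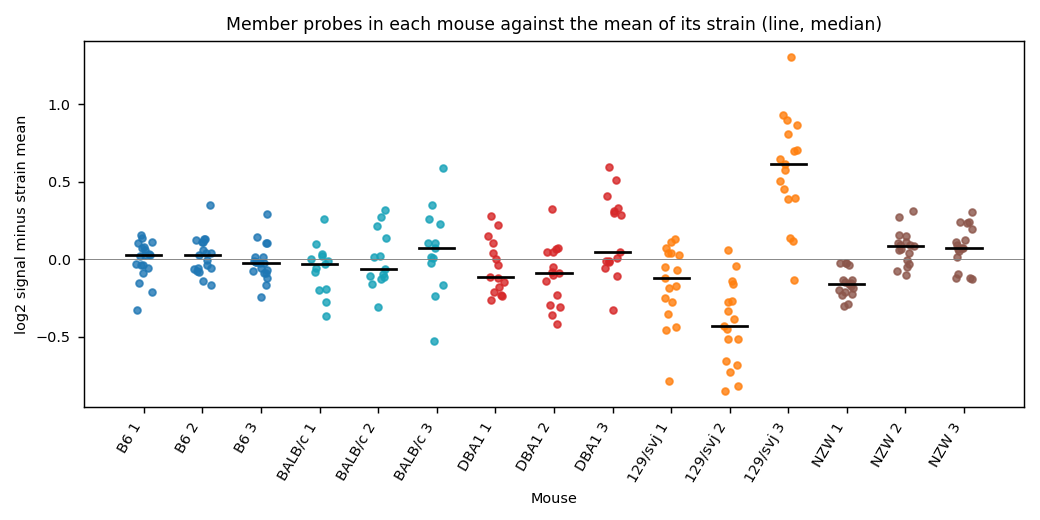
Log2 signal of each member probe in each mouse minus the mean of its strain, for the tested paired probes detected in at least 1 mouse of that strain; each point is a probe and the line is the median over probes. The points of 129/svj mouse 3 lie mostly above 0 (median 0.61) and those of 129/svj mouse 2 below it (median -0.43).

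Comparing resistant with sensitive strains, as the mean of the difference within each table, 11 of the 20 paired member probes were called at an adjusted p below 0.05, against a background of 12.0% of the 6896 probes tested. Of these, 4 were higher in the resistant strains (background 6.54%) and 7 were lower (background 5.45%). The median difference over the 20 probes was -0.27 on the log2 scale, against -0.01 over all probes. The probes that were lower in resistant strains were those of H2-K1, H2-D1 (both), Cd74 (both), H2-DMb2 and H2-T10, and the ones that were higher were those of H2-Q6 (both), H2-Q7 (ILMN_2754170) and H2-Ke2. Of the 4 higher ones, ILMN_2675337 of H2-Q6 and ILMN_2754170 of H2-Q7 passed the detection filter only with the resistant mice, in which they were high, so that they had to differ and add no support to these counts; the other 9 of the 11 passed it without the higher group. The probe of H2-Q7 enters the BALB/c comparisons in the same way.

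The probes that were lower in resistant strains were each called in at least 1 BALB/c comparison and in none of B6. In B6 against NZW, 5 probes were called, all of them higher in B6, and none was lower (background 9.83%, with 5.84% higher and 3.99% lower). In BALB/c against DBA1, 14 of 20 were called, 5 higher and 9 lower in BALB/c (background 9.44%, with 4.58% higher and 4.86% lower). In BALB/c against 129/svj, 10 of 20 were called, 2 higher and 8 lower (background 7.47%, with 4.05% higher and 3.42% lower). These comparisons share the BALB/c mice. Between the sensitive strains DBA1 and 129/svj, 7 were called, 3 higher and 4 lower in DBA1 (background 7.29%, with 3.73% higher and 3.57% lower).

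The difference between the within-table effects, BALB/c minus the mean of DBA1 and 129/svj against B6 minus NZW, was itself called for 10 of the 20 probes, ILMN_2754170 of H2-Q7 among them, against 10.3% of all probes. Only 3 probes, both of H2-Q6 and ILMN_2754170 of H2-Q7, were called and also had both resistant strain means on 1 side of all sensitive strain means, as did 3.51% of all probes. Of these, ILMN_2675337 of H2-Q6 and ILMN_2754170 passed the detection filter only with the resistant mice and add no support, and ILMN_2754170 was undetected in B6. That leaves ILMN_2495447 of H2-Q6. Strain means are ordered across the tables here, so the count is a description. Strain was also treated as a random block, with a correlation of 0.17 among mice of a strain. That value is a consensus over all tested probes and was not estimated for the members alone. The block allows for likeness within a strain, but mice are still counted, so it is not a test with strains as the units. All 4 higher probes, including both that passed the filter only with the resistant mice, were then still called and none of the 7 lower ones was.

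**Figure D2:**
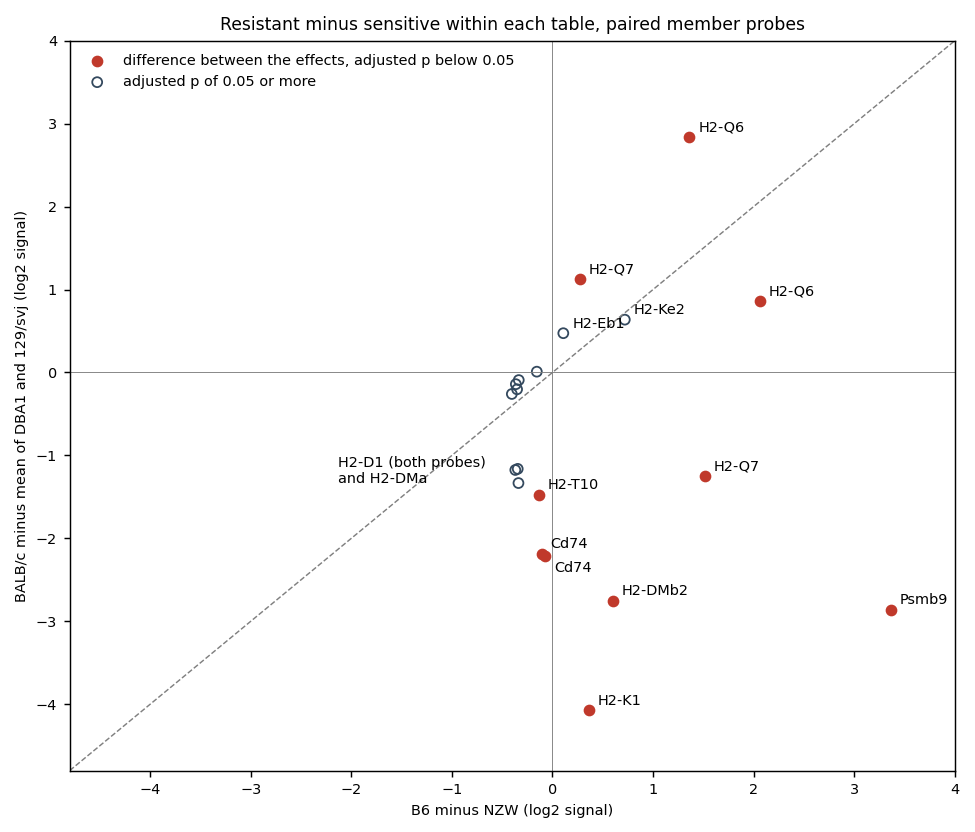
Each point is a paired member probe, with B6 minus NZW on the x axis and BALB/c minus the mean of DBA1 and 129/svj on the y axis (log2 signal); the dashed line marks equal effects and filled points had a called difference between the effects. Psmb9 (3.36 and -2.86), H2-K1 (0.36 and -4.07) and H2-DMb2 (0.60 and -2.75) lie farthest below the line, and both H2-Q6 probes lie above 0 on both axes.

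Among BALB/c, DBA1 and 129/svj, the classical class I genes H2-K1 and H2-D1 had their lowest strain mean in BALB/c, which for H2-D1 overlapped 129/svj. The H2-K1 probe (ILMN_2588139) read 5.05, 4.92 and 4.95 in the BALB/c mice, none of them detected, against 9.12, 9.25 and 9.68 in DBA1 and 8.77, 8.06 and 9.39 in 129/svj. In the other table it read 7.22, 7.18 and 7.36 in B6 and 6.60, 6.99 and 7.09 in NZW. The BALB/c mice were thus below every DBA1 and 129/svj mouse, and DBA1 and 129/svj overlapped. The fold was at least 13.0 lower in BALB/c than in DBA1 (adjusted p = 1.36e-08) and at least 8.53 lower than in 129/svj (adjusted p = 7.43e-08), counting from the detection limit. B6 exceeded NZW by 0.36 ± 0.25 (SE, adjusted p = 0.494), with no overlap between the mice. The resistant strains were lower by -1.86 ± 0.17 (adjusted p = 2.22e-06), and with strain as a random block the adjusted p was 0.0872.

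For H2-D1, both probes gave the same order of strain means within each table. The first (ILMN_2476267) read 10.23, 10.09 and 10.27 in BALB/c, 11.98, 12.17 and 12.51 in DBA1 and 10.56, 10.18 and 11.77 in 129/svj. The second (ILMN_2462745) read 10.64, 10.67 and 10.62 in BALB/c, 12.20, 12.33 and 12.71 in DBA1 and 11.02, 10.47 and 12.09 in 129/svj. BALB/c lay below DBA1 with no overlap and overlapped 129/svj, where mouse 3 lay well above the other mice of its strain. BALB/c was 4.08-fold and 3.42-fold lower than DBA1 (log2 difference -2.03 ± 0.29 and -1.77 ± 0.28, adjusted p = 2.5e-04 and 6.53e-04). Against 129/svj, BALB/c differed by -0.64 ± 0.29 and -0.55 ± 0.28, which was not called (adjusted p = 0.251 and 0.326).

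DBA1 exceeded 129/svj by 1.39 ± 0.29 and 1.22 ± 0.28 (adjusted p = 0.00634 and 0.0126), and by 1.85 and 1.67 without 129/svj mouse 3. With ILMN_2462745 this was not called without 129/svj mouse 1 (adjusted p = 0.0562) or with the table fitted alone (adjusted p = 0.0909). B6 read 11.56, 11.54 and 11.19 with the first probe and 11.97, 11.99 and 11.88 with the second, and NZW 11.74, 11.72 and 11.84 and 12.27, 12.19 and 12.41. NZW thus lay above B6 in every mouse with both probes, but the difference of -0.34 and -0.35 was not called (adjusted p = 0.606 and 0.578). The resistant against sensitive difference of -0.84 and -0.75 (adjusted p = 0.00878 and 0.0142) was not called with strain as a random block (adjusted p = 0.252 and 0.269) or without DBA1 (-0.49 and -0.45, adjusted p = 0.163 and 0.192). The difference between the within-table effects was not called for H2-D1 (adjusted p = 0.129 and 0.213).

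B2m, the shared light chain, had no partner probe and was read in B6 and NZW. Its detected probe (ILMN_2740000) read 13.95, 14.03 and 14.09 in B6 and 14.03, 13.68 and 13.80 in NZW, with overlap between the strains (difference 0.19 ± 0.12, adjusted p = 0.339). The other B2m probe (ILMN_2670561) was detected in none of the 6 mice.

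**Figure D3:**
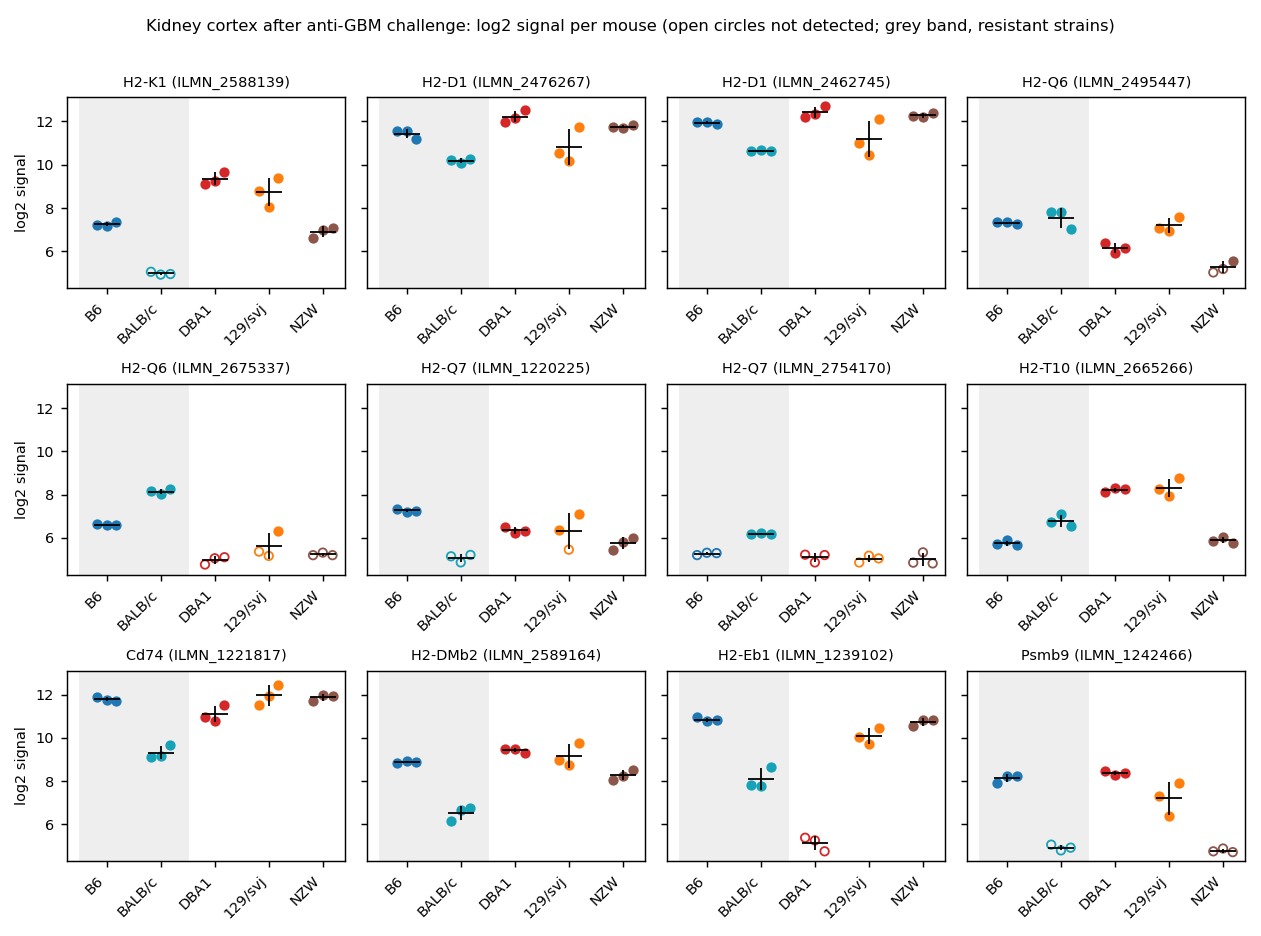
Log2 signal of 12 paired member probes in each mouse (points; open where the detection p-value was above 0.05), with the mean and SD of the 3 mice of a strain as bars; the grey band holds the resistant strains B6 and BALB/c. BALB/c is lowest for H2-K1, H2-D1, Cd74 and H2-DMb2, DBA1 is lowest for H2-Eb1, and Psmb9 is undetected in BALB/c and NZW.

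The class I-like genes of the Q and T regions did not move one way, and probes of the same gene differed. H2-Q6 was higher in the resistant strains with both probes. The first H2-Q6 probe (ILMN_2495447) read 7.34, 7.34 and 7.26 in B6 and 5.02, 5.18 and 5.56 in NZW, and 7.80, 7.81 and 7.01 in BALB/c against 6.38, 5.93 and 6.17 in DBA1 and 7.08, 6.92 and 7.59 in 129/svj. The second (ILMN_2675337) read 6.62, 6.60 and 6.58 in B6 and was undetected in NZW (5.20, 5.32 and 5.20), and read 8.16, 8.01 and 8.24 in BALB/c against 4.77, 5.06 and 5.10 in DBA1 (undetected) and 5.36, 5.17 and 6.31 in 129/svj. With the second probe no resistant mouse overlapped a sensitive mouse of its own table, whereas with the first probe BALB/c and 129/svj overlapped.

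The resistant strains were higher in H2-Q6 by 1.46 ± 0.15 with the first probe (adjusted p = 7.66e-06, and 0.0271 with strain as a random block). The second probe, given as a description because of the filter, differed by 2.10 ± 0.14. B6 was at least 3.59-fold higher than NZW with the first probe, which was detected on 1 of 3 NZW arrays (adjusted p = 1.44e-05) and at least 2.21-fold higher with the second (adjusted p = 5.98e-04). BALB/c was 2.61-fold higher than DBA1 with the first probe (adjusted p = 8.59e-04) and at least 5.64-fold higher with the second (adjusted p = 1.15e-07). Against 129/svj, BALB/c was at least 4.73-fold higher with the second probe, which was detected on 2 of 4 129/svj arrays (adjusted p = 1.28e-06), but the first probe gave 0.34 ± 0.23 (adjusted p = 0.474). The first probe was also lower in DBA1 than in 129/svj, by -1.04 ± 0.23 (adjusted p = 0.0086).

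H2-Q7, a close relative of H2-Q6, gave opposite directions with its paired probes. ILMN_1220225 was undetected in BALB/c (5.15, 4.87 and 5.21) and read 6.50, 6.20 and 6.33 in DBA1, 6.34, 5.46 and 7.11 in 129/svj, 7.35, 7.21 and 7.25 in B6 and 5.45, 5.82 and 5.996 in NZW. ILMN_2754170 was detected in the BALB/c mice alone (6.16, 6.21 and 6.20) and lay between 4.82 and 5.33 in the other strains. Among BALB/c, DBA1 and 129/svj, the first probe thus put BALB/c lowest and the second put it highest.

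With ILMN_1220225, B6 was 2.85-fold higher than NZW (adjusted p = 0.00264), and BALB/c was at least 1.62-fold lower than DBA1 (adjusted p = 0.0113) and at least 1.58-fold lower than 129/svj (adjusted p = 0.0149). Without BALB/c mouse 2 neither BALB/c difference was called (adjusted p = 0.0539 and 0.0714), and without 129/svj mouse 3 the difference from 129/svj was -0.82 in place of -1.23. The latter was also not called with the table fitted alone (adjusted p = 0.065). With ILMN_2754170, BALB/c was at least 1.47-fold higher than DBA1 and at least 1.48-fold higher than 129/svj. This probe passed the detection filter only through BALB/c, so these values are a description and no test of it is given. Another H2-Q7 probe (ILMN_1227842), read in B6 and NZW only, gave 7.33, 7.46 and 7.47 against 6.72, 7.31 and 6.76 (difference 0.49 ± 0.16, adjusted p = 0.0724).

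H2-T10, which encodes a nonclassical class I molecule of the T region, was lower in BALB/c. Its paired probe read 6.72, 7.11 and 6.56 in BALB/c, 8.11, 8.30 and 8.27 in DBA1 and 8.24, 7.93 and 8.77 in 129/svj, with no overlap (-1.43 ± 0.19 and -1.52 ± 0.19, adjusted p = 1.40e-04 and 6.40e-05). B6 and NZW overlapped (5.72, 5.88 and 5.67 against 5.86, 6.05 and 5.77). The resistant strains were lower by -0.81 ± 0.13 (adjusted p = 4.65e-04), and with strain as a random block the adjusted p was 0.0587. A second H2-T10 sequence had a search key held by 2 rows of the B6 and NZW table, and its row in the other table (detected on 3 of 4 BALB/c arrays), read in a fit of that table alone that was added after the data were seen, read 6.07, 6.02 and 5.28 in BALB/c, 7.15, 7.0005 and 7.42 in DBA1 and 6.63, 6.53 and 7.05 in 129/svj. BALB/c was again below both with no overlap, by -1.40 ± 0.23 (adjusted p = 0.00602) and -0.95 ± 0.23 (adjusted p = 0.0493), where 5.75% and 4.82% of the 15818 probes of that table were called.

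Other class I-like members differed less. H2-M3, which presents formylated peptides, was detected in DBA1 mouse 3 (6.16) alone among the BALB/c, DBA1 and 129/svj mice and read 7.24 to 7.54 in B6 and 7.59 to 8.09 in NZW, a difference of -0.36 ± 0.26 (adjusted p = 0.495). The tested H2-T18 probe (ILMN_1260154) lay between 7.79 and 8.34 in all 15 mice and was called in no comparison. H2-Ke2, which lies beside H2-K1 and encodes a prefoldin subunit rather than an MHC molecule, read 10.77, 10.63 and 10.69 in B6, 9.84, 10.04 and 10.05 in NZW, 9.92, 9.83 and 10.03 in BALB/c, 9.42, 9.19 and 8.81 in DBA1 and 9.51, 9.49 and 9.30 in 129/svj. No resistant mouse overlapped a sensitive mouse of its own table. The resistant strains were higher by 0.68 ± 0.10 (adjusted p = 1.90e-04), also with strain as a random block (adjusted p = 0.013), and B6 exceeded NZW by 0.72 ± 0.15 (adjusted p = 0.00426). BALB/c exceeded DBA1 by 0.78 ± 0.15 (adjusted p = 0.00265). Against 129/svj, BALB/c differed by 0.49 ± 0.15, which was not called (adjusted p = 0.0581).

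Among the class II genes, Cd74, the invariant chain, was lower in BALB/c with both probes. The brighter probe (ILMN_1221817) read 9.12, 9.15 and 9.67 in BALB/c, 10.98, 10.80 and 11.50 in DBA1 and 11.51, 11.92 and 12.47 in 129/svj. In the other table it read 11.92, 11.77 and 11.73 in B6 and 11.70, 11.98 and 11.94 in NZW. BALB/c lay below every DBA1 and 129/svj mouse, while B6 and NZW overlapped. BALB/c was 3.43-fold lower than DBA1 (adjusted p = 1.09e-04) and 6.28-fold lower than 129/svj (adjusted p = 1.38e-06). The dimmer probe (ILMN_1247832), undetected in 2 of 3 BALB/c mice (5.18, 5.32 and 5.64), gave at least 2.67-fold and 5.24-fold, counted from the detection limit.

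DBA1 was lower than 129/svj in Cd74 by -0.87 ± 0.23 and -0.97 ± 0.26 (adjusted p = 0.0315 and 0.0324), and this was not called without 129/svj mouse 3 (-0.62 and -0.68, adjusted p = 0.109 and 0.114), nor without DBA1 mouse 1, DBA1 mouse 2 or 129/svj mouse 2. B6 and NZW differed by -0.07 ± 0.23 (adjusted p = 0.929) and -0.11 ± 0.26 (adjusted p = 0.893). The resistant strains were lower by -1.14 ± 0.15 and -1.15 ± 0.17 (adjusted p = 1.06e-04 and 3.10e-04), and with strain as a random block the adjusted p was 0.0866 and 0.101.

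H2-DMb2, a beta chain of the peptide editor H2-DM, was also lowest in BALB/c. It read 6.18, 6.68 and 6.77 in BALB/c, 9.47, 9.49 and 9.32 in DBA1, 8.99, 8.74 and 9.79 in 129/svj, 8.83, 8.93 and 8.90 in B6 and 8.08, 8.26 and 8.53 in NZW. BALB/c was 7.37-fold lower than DBA1 and 6.18-fold lower than 129/svj (adjusted p = 4.84e-07 and 1.19e-06), with no overlap. B6 lay above NZW in every mouse, by 0.60 ± 0.23 (adjusted p = 0.126). The resistant strains were lower by -1.08 ± 0.15 (adjusted p = 1.45e-04), and with strain as a random block the adjusted p was 0.194.

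H2-DMa, the alpha chain, was undetected in BALB/c (5.03, 4.99 and 5.17) and read 5.96, 6.54 and 6.16 in DBA1 and 5.47, 5.74 and 7.56 in 129/svj. Both lay above BALB/c without overlap, yet neither difference was called (-1.16 ± 0.38 and -1.19 ± 0.38, adjusted p = 0.073 and 0.0763), and 129/svj mouse 3 stood above its strain mates. B6 (7.58, 7.59 and 8.02) and NZW (7.97, 8.14 and 8.20) overlapped. H2-DMb1, a second beta chain, was read in B6 (8.72, 8.81 and 8.79) and NZW (7.83, 8.07 and 8.10) only and was higher in B6 in every mouse, by 0.78 ± 0.11 (adjusted p = 0.0018).

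H2-Eb1, the beta chain of H2-E, had another pattern. It was near the detection limit in DBA1 (5.39, 5.26 and 4.76, detected on 1 of 4 arrays and in no mouse after averaging), intermediate in BALB/c (7.80, 7.77 and 8.67) and high in 129/svj (10.03, 9.74 and 10.46). In the other table it read 10.95, 10.77 and 10.82 in B6 and 10.54, 10.82 and 10.85 in NZW. The strains of the BALB/c, DBA1 and 129/svj table did not overlap, while B6 and NZW did. Counted from the detection limit, BALB/c was at least 5.42-fold higher than DBA1 (adjusted p = 7.19e-07) and 129/svj at least 21.7-fold higher than DBA1 (adjusted p = 1.09e-09). BALB/c fell short of 129/svj by -2.00 ± 0.24 (adjusted p = 4.07e-05). The resistant strains did not differ from the sensitive ones beyond the test (0.29 ± 0.16, adjusted p = 0.298). No other H2-Eb1 probe was read.

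The remaining class II genes were near background or were read in B6 and NZW alone. Ciita, the transactivator, lay between 5.11 and 6.17 in all mice, close to the detection limit, and H2-Oa between 4.87 and 5.98. Neither was called in any comparison, with adjusted p for resistant against sensitive strains of 0.15 and 0.308. H2-Ob, the other H2-O chain, overlapped between B6 and NZW in its detected probe (5.94 to 6.004 in B6 and 5.96 to 6.13 in NZW) and among BALB/c, DBA1 and 129/svj in the row of the shared key (5.97 to 6.64). In the fit of that table alone, H2-Ob was not called in any of the 3 comparisons. Both H2-Eb2 probes were undetected in B6 and NZW.

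Fitted on the B6 and NZW arrays alone, 23 of the 41 member probes without a pair were tested (16 genes). Of these, 6 were called, 3 higher and 3 lower in B6, against 18.8% of the 16766 probes tested there (9.24% higher and 9.60% lower in B6). The median difference was -0.04 over the 23 probes and over all probes alike. Of the 6, the probes of H2-Bl, H2-Ea, H2-Q5 (ILMN_1220986) and H2-Ab1 (ILMN_1226525) passed the detection filter only with the mice of the higher strain, so that the count adds no support, and 2 passed it without them. The widest differences were those of class II chains.

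H2-Ab1, the beta chain of H2-A, gave a far higher signal in B6. Its first probe (ILMN_1226525) read 12.03, 11.88 and 11.82 in B6 and 4.68, 4.70 and 5.84 in NZW, where only mouse 3 was detected, so that B6 was at least 86.2-fold higher counted from the detection limit. The second (ILMN_2631423) read 10.56, 10.55 and 10.40 in B6 and 5.98, 6.13 and 6.42 in NZW, all detected, a difference of 4.32 ± 0.13 (adjusted p = 1.67e-07). Both probes separated the strains, and the second gave a fold of 20.0. Both have the same search key, so less RNA in NZW and an NZW allele that binds both poorly cannot be told apart.

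H2-Aa, the alpha chain that pairs with the product of H2-Ab1, read 7.41, 7.45 and 7.74 in B6 and 7.02, 7.40 and 6.81 in NZW, a difference of 0.46 ± 0.17 (adjusted p = 0.0957). H2-Ea, the alpha chain of H2-E, went the other way. It read 9.16, 9.18 and 8.90 in NZW and 4.94, 5.10 and 5.46 in B6, of which only the last passed the detection limit, so that NZW was at least 13.5-fold higher counted from that limit. In the same pair of strains, the paired probes of H2-Eb1 and Cd74 were not called.

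The class I-like members with a large difference in this table were H2-Bl and 1 probe of H2-Q5, both higher in NZW and detected in NZW alone, so that their values are a description with no test. H2-Bl was undetected in B6 (4.94, 5.03 and 4.73) and read 6.45, 7.10 and 6.28 in NZW, at least 2.50-fold higher there. H2-Q5 was undetected in B6 with ILMN_1220986 (4.72, 4.84 and 4.81) and read 6.59, 6.45 and 6.19 in NZW, at least 2.19-fold higher there. The other H2-Q5 probe (ILMN_1216580) did not follow it, with 9.16, 9.26 and 9.09 in B6 and 8.96, 9.29 and 9.30 in NZW (-0.01 ± 0.13, adjusted p = 0.961). The 3 probes of H2-T23, the gene of the Qa-1 molecule, overlapped between the strains (differences of -0.06 to -0.04), as did the second H2-T10 sequence (ILMN_1230878) and H2-Ke6, a dehydrogenase gene beside H2-K1.

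**Figure D4:**
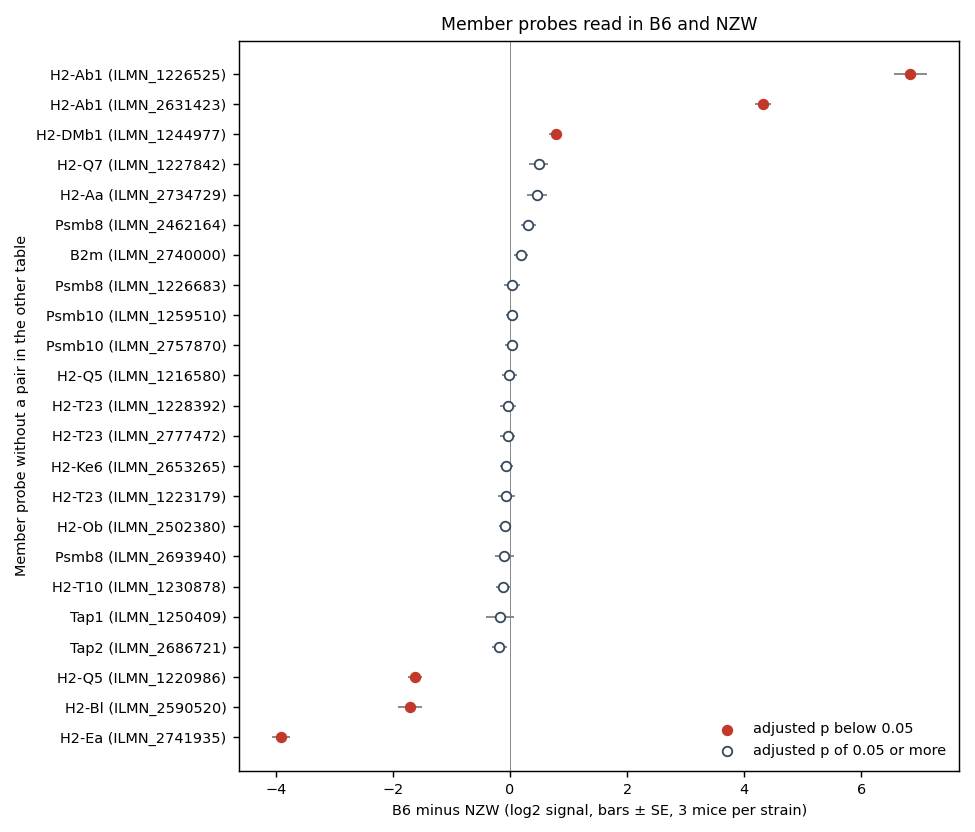
Difference in log2 signal between B6 and NZW (points, with SE as bars, 3 mice per strain) for the 23 tested member probes without a pair; filled points had an adjusted p below 0.05. H2-Ab1 lies at 6.84 and 4.32 and H2-Ea at -3.91, of which 6.84 and -3.91 are against a strain near the detection limit, and the probes of Tap1, Tap2, Psmb8 and Psmb10 lie near 0.

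Among the loading and proteasome genes, only Psmb9 was called in any comparison. It encodes a catalytic subunit of the immunoproteasome, and its probe read 7.94, 8.26 and 8.26 in B6 and 4.76, 4.89 and 4.72 in NZW, where it was undetected. In the other table it was undetected in BALB/c (5.07, 4.80 and 4.93) and read 8.48, 8.28 and 8.36 in DBA1 and 7.32, 6.39 and 7.92 in 129/svj. It was thus undetected in 1 resistant and 1 sensitive strain. B6 was at least 6.48-fold higher than NZW (adjusted p = 3.95e-07), and BALB/c was at least 6.61-fold lower than DBA1 (adjusted p = 3.49e-07) and at least 2.95-fold lower than 129/svj (adjusted p = 2.65e-05).

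DBA1 exceeded 129/svj in Psmb9 by 1.16 ± 0.26 (adjusted p = 0.0113), by 1.52 without 129/svj mouse 3, and by 1.09 with the table fitted alone, where it was not called (adjusted p = 0.0671). The effects within the tables had opposite signs, and resistant against sensitive strains was not called (0.25 ± 0.17, adjusted p = 0.434), while their difference was the largest among the members, -6.22 ± 0.35 (adjusted p = 1.14e-08). Tap1, whose start lies beside that of Psmb9 on the opposite strand and which encodes a TAP subunit, did not share the B6 and NZW difference. It read 6.39, 6.72 and 6.06 in B6 and 6.19, 7.04 and 6.47 in NZW (-0.17 ± 0.23, adjusted p = 0.661).

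The other genes of this group overlapped between B6 and NZW or were not called. Tap2, the second TAP subunit, read 9.30, 9.61 and 9.48 in B6 and 9.50, 9.71 and 9.73 in NZW (-0.18 ± 0.12, adjusted p = 0.361). The 3 probes of Psmb8, a second immunoproteasome subunit, gave -0.10, 0.04 and 0.31 (adjusted p = 0.731, 0.877 and 0.114), and both probes of Psmb10, the third, gave 0.02 and 0.04 (adjusted p = 0.902 and 0.841). In the other table the shared Psmb8 key read 6.60, 6.67 and 6.88 in BALB/c, 8.28, 8.16 and 8.70 in DBA1 and 7.33, 6.12 and 8.76 in 129/svj. BALB/c lay below DBA1 with no overlap, by -1.66 ± 0.51, but this was not called (adjusted p = 0.102), and 129/svj spanned both. DBA1 against 129/svj was called for none of the 3 shared keys, against 4.48% of the probes of that table.

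Tapbp, which encodes tapasin, was called in no comparison. It read 6.02, 6.01 and 5.83 in B6, 6.13, 6.36 and 6.59 in NZW, 6.54, 6.32 and 6.45 in BALB/c, 6.67, 6.36 and 6.98 in DBA1 and 6.37, 6.21 and 7.58 in 129/svj. The B6 mice lay below the NZW mice (-0.40 ± 0.28, adjusted p = 0.477), and the strains of the other table overlapped.

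Of the wider antigen presentation list of 57 symbols (chaperones, proteasome subunits, lysosomal proteases, regulators and other class I-like receptors), 18 had a paired probe and 10 were tested. In resistant against sensitive strains 1 of 10 was called (background 12.0%) and in B6 against NZW none (9.83%). In BALB/c against DBA1 1 was called (9.44%), in BALB/c against 129/svj 2 (7.47%) and in DBA1 against 129/svj 1 (7.29%). All were lower in the first strain or group named, and so few probes give no result about the list as a whole. The called probes were those of Irf8 and Fcgrt. Irf8, a transcription factor of myeloid and dendritic cells, averaged 6.44 ± 0.12 in BALB/c, 7.39 ± 0.34 in DBA1 and 7.37 ± 0.34 in 129/svj (SD, n = 3) and was lower in BALB/c by -0.95 and -0.94 (adjusted p = 0.00716 and 0.00849). Fcgrt, the neonatal Fc receptor, which is a class I-like chain, averaged 13.83 ± 0.10 in 129/svj, above BALB/c and DBA1 (differences of -0.71 and -0.74, adjusted p = 0.00127 and 9.48e-04).

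Cell type markers were read in the same way. The 2 tested macrophage markers were not called in any comparison, and their summed normalised signal was 160 to 279 in BALB/c, 405 to 662 in DBA1, 117 to 599 in 129/svj, 783 to 1273 in B6 and 722 to 742 in NZW. BALB/c lay below DBA1 in these sums and in Cd74. The 129/svj mice 1 and 2 lay within or below the BALB/c range of these sums and above every BALB/c mouse in Cd74. These are values of 2 probes, and the part of macrophages in the Cd74 signal was not tested. C1qc was lower in BALB/c than in DBA1 by -1.47 ± 0.48 (adjusted p = 0.0745). The B cell markers with a pair, Cd22 and Pax5, did not pass the detection filter, and of the dendritic cell markers Ccr7 alone did (not called), with Itgax, Flt3 and Clec9a below it. The 3 T cell markers and the markers of podocytes and endothelium were not called in any comparison, and of the proximal tubule markers an Lrp2 probe (ILMN_2708043) was called (B6 against NZW -1.13 ± 0.16, adjusted p = 2.13e-04; BALB/c against DBA1 0.55 ± 0.16, adjusted p = 0.0438; BALB/c against 129/svj 0.71 ± 0.16, adjusted p = 0.0112), while the other Lrp2 probe was called in none. The part of any cell type in the member differences was not tested beyond these values.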

How the data were processed

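Kidney cortex RNA of 15 mice was read on 18 Illumina BeadChips, and the authors deposited the summarised bead intensities of BeadStudio and their detection p-values per probe in 2 tables, not normalised between arrays. The array is named in the deposited design text as Mouse WG-6 v1, but the tables list different probe sets (46643 and 46147 rows), and whether both are of that version is not given in the sources used here. The members and gene lists were chosen with earlier results of these data known. Rows of the second table were found through the search key (19886 pairs, matched 1 to 1). Intensities were background corrected by normexp from the deposited detection p-values (offset 16), quantile normalised over all arrays, taken to log2 and averaged over repeat arrays with limma 3.58.1 in R 4.3.3. Probes with a detection p-value of at most 0.05 in 3 or more mice were fitted with 1 coefficient per strain (lmFit, eBayes), and p-values were adjusted over all 6896 tested probes by the Benjamini-Hochberg method. "Called" means an adjusted p below 0.05. Resistant against sensitive is the mean of BALB/c minus the mean of DBA1 and 129/svj and of B6 minus NZW. Probes without a pair were fitted in the B6 and NZW table alone, and 3 shared keys in the other table alone. Where all arrays of a strain were undetected, the fold is a lower bound counted from the lowest detected signal of each array, and likewise where only some of them were detected, an alternative added after seeing the data. All probes of the classical class I, class II, loading and proteasome genes were named, and of the class I-like genes those called. H2-M3, H2-T18, H2-T23 and H2-Ke6 were named beside them after their values were seen. The fit was tested on simulated data. Promoters were searched with Python 3.11.15 and pandas 2.3.3, and plots were drawn with matplotlib 3.10.9. The number of arrays limits the precision. Median intensities were 81.1 to 152 and 30.5% to 36.4% of probes were detected per array. Repeat arrays of a mouse correlated at 0.987 to 0.988 and arrays of different mice of a strain at 0.961 to 0.993.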

Additional observations from a re-analysis of the deposited data

Results flagged for a closer look

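Resistant minus sensitive was computed within each table, and the difference between the effects (the BALB/c table minus the B6 and NZW table, log2 scale, limma) was called for 10 member probes. Each table has its own strains, so table and strain cannot be told apart in these differences, and no cause was tested. Psmb9 differed by -6.22 (-2.86 in the first and 3.36 in the second). H2-K1 differed by -4.43 and H2-DMb2 by -3.35. H2-Q7 with ILMN_1220225 differed by -2.76, and with ILMN_2754170, which passed the detection filter only through BALB/c, by 0.86. Both Cd74 probes differed, by -2.14 and -2.08. H2-T10 differed by -1.33. H2-Q6 differed by -1.20 with ILMN_2495447 and by 1.48 with ILMN_2675337, with both effects above 0 for each probe. Without background correction, the H2-Q6 difference of ILMN_2495447 was -0.52 (adjusted p = 0.088) and the H2-Q7 difference of ILMN_2754170 was 0.35 (adjusted p = 0.108), neither of them called. The former was also not called with an offset of 50 (adjusted p = 0.0563) or without NZW mouse 1 (adjusted p = 0.057).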

How the results depend on the processing

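Of 63 called member differences that were followed through the alternatives, 48 stayed called in every alternative that gave a value, 15 were lost at least once and none reversed. The methods' t-test and the minimum log2 difference of 1 gave counts only, and single differences were not followed through them. The 63 include calls of probes that passed the detection filter only with the higher group. These were 2 for resistant against sensitive strains and 1 each for BALB/c against DBA1 and against 129/svj. Another 4 were unmatched probes in B6 against NZW. That these stayed called adds no support. With each mouse left out in turn, 57 stayed called wherever a value was given, but 6 of these, of H2-Bl, H2-Q5 (ILMN_1220986) and H2-Q7 (ILMN_2754170), fell below the detection filter without a mouse of the strain that had them detected and gave no value, so 51 were called in all. Except for the table fitted alone, the share of all probes called was not computed for the counts that follow. These counts describe the members only and are not set against a background. Keeping only probes detected in every mouse gave 6 calls for resistant against sensitive strains, 1 for B6 against NZW, 6 for BALB/c against DBA1, 4 for BALB/c against 129/svj, 3 for DBA1 against 129/svj, 3 for the difference between the effects and 2 for the unmatched probes, with fewer probes tested. The methods' t-test after adjustment gave 1, 8, 2 and 1 for resistant against sensitive strains, BALB/c against DBA1, BALB/c against 129/svj and DBA1 against 129/svj, and unadjusted 2 for DBA1 against 129/svj. For resistant against sensitive strains this t-test pooled the mice of both tables. Unlike the main contrast, it therefore also carries any difference between the tables. For resistant against sensitive strains, strain as a random block gave 4 and a minimum log2 difference of 1 gave 6. The table fitted alone gave 3 for DBA1 against 129/svj, where 4.48% of all its probes were called, and the cause was not tested. Leaving out each mouse in turn gave 10 to 12 for resistant against sensitive strains, 5 to 6 for B6 against NZW, 12 to 15 for BALB/c against DBA1, 8 to 13 for BALB/c against 129/svj, 5 to 7 for DBA1 against 129/svj, 9 to 12 for the difference between the effects and 4 to 6 for the unmatched probes. Same-numbered mice did not deviate together (r from -0.22 to 0.36), so the numbers do not pair them; with the replicate block the counts were 12, 5, 15, 11, 7, 10 and 6. Signals near the detection limit give bounds only.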
